A study of Mus musculus with 113 samples.

Results

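The levels of 10 genes that write, erase or protect DNA methylation were followed through RNA-seq of mouse embryos. They were chosen by name. They were the DNA methyltransferases *Dnmt1*, *Dnmt3a* and *Dnmt3b*, their partners *Dnmt3l* and *Uhrf1*, the dioxygenases *Tet1*, *Tet2* and *Tet3*, and the protective factors *Dppa3* and *Trim28*. All 10 were among the 24006 genes listed, and each had an FPKM value (expression scaled by transcript length and by mapped fragments) in all 92 libraries. DNA methylation itself was not measured.

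The 92 libraries fell into 22 groups of embryos that were wild type before injection. In 32 pools of embryos (2 per group), small interfering RNAs (siRNAs) against the nuclear receptors *Nr5a2*, *Rarg*, *Nr1h3* and *Nr2c2*, or a negative control siRNA (NC), had been injected. The groups were 4KD (all 4 targets, 5 μM each) and NC (20 μM) at the 4-cell (4C) and 8-cell (8C) stages, the 4 combinations of 3 targets (3KD, 5 μM each) with NC (15 μM) at 8C, each target alone (5 μM) with NC (5 μM) at 8C, and *Nr5a2* KD with NC (20 μM each) at the 2-cell (2C) stage. In 60 single embryos at 2C or 8C, base editor mRNA (BE), an *Nr5a2* guide (sgRNA), or both (BE + sgRNA) had been injected at 100 ng/μl. Each stage had 8 BE, 8 sgRNA and 14 BE + sgRNA embryos, and the BE and sgRNA embryos served as controls. The editor is a cytosine deaminase fused to a Cas9 nickase and was used to create a stop codon in *Nr5a2*, and edited alleles were not counted here. The level of *Nr5a2* does not show editing, and its median was 30.3 FPKM at 2C and 47.9 at 8C in BE + sgRNA embryos. An siRNA lowers a transcript without removing the gene.

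After fertilization, the paternal genome loses much of its 5-methylcytosine by TET3-driven oxidation, and DNA methylation of both parental genomes then falls with replication, because maintenance is restrained. UHRF1 brings DNMT1 to hemimethylated CpG sites, and DPPA3 (also called STELLA) limits UHRF1 in the nucleus and protects maternal DNA from TET3. TRIM28 (KAP1), recruited by KRAB zinc finger proteins, keeps imprinted regions and some retroelements silent while the rest of the genome is reset.

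In all, 3 libraries had column names that give another stage than their labels. The library labelled 2C sgRNA replicate 8 had a 4-cell column name, and its 6 oocyte markers summed to 49.7 FPKM and its 6 2C markers to 3.73, against 267 to 4517 and 56.1 to 2008 in the other 33 libraries at 2C. The libraries labelled 8C BE + sgRNA replicates 13 and 14 also had 4-cell column names, with oocyte marker sums of 135 and 285 (12.9 to 190 in the other 56 libraries at 4C and 8C) and 2C marker sums of 237 and 55.5 (1.02 to 393). Cumulus and granulosa cell markers summed to at most 6.72 FPKM in the libraries at 2C and to at most 0.937 at 4C and 8C. Sperm markers summed to at most 44.5 FPKM at 2C. Each targeted receptor was lower in its KD pools than in the NC pools, for example *Nr5a2* at 9.65 and 12.8 FPKM in 8C *Nr5a2* KD pools against 48.8 and 50.2, except *Rarg* in the 3KD experiment, where an NC pool at 2.18 lay within the range of the KD pools (1.61 to 3.598). FPKM summed to between 83392 and 556462 per library. The lowest sum belonged to 8C BE + sgRNA replicate 8. The 8C sgRNA embryos of replicates 5 to 8 had sums of 207918 to 268257, against 413397 to 474480 in the other 8C control embryos.

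The genes lie on mm9 at chr9:20711650-20757317 (*Dnmt1*, minus strand), chr12:3806007-3914443 (*Dnmt3a*, plus), chr2:153475186-153513466 (*Dnmt3b*, plus), chr10:77504692-77526367 (*Dnmt3l*, plus), chr17:56442744-56462909 (*Uhrf1*, plus), chr10:62267318-62361866 (*Tet1*, minus), chr3:133126643-133207354 (*Tet2*, minus), chr6:83312367-83391672 (*Tet3*, minus), chr6:122576428-122580290 (*Dppa3*, plus) and chr7:13609501-13616384 (*Trim28*, plus). RefSeq promoters of the GRCm38.p6 build, from 250 bases before to 50 bases after each start, matched 9 of the 10 genes with 16 promoters in all. The 16 had a median of 20 CpG dinucleotides, against 7 over all 32851 promoters of the table. The promoters of *Tet2* and *Tet3* are shown because these genes changed in opposite directions with stage, with CpG in capitals. The *Tet2* promoter had 57 CpG and a GC content of 81.3%, and the *Tet3* promoter had 22 CpG and 71.3%.
*Tet2*, chr3:133544341-133544640, minus strand: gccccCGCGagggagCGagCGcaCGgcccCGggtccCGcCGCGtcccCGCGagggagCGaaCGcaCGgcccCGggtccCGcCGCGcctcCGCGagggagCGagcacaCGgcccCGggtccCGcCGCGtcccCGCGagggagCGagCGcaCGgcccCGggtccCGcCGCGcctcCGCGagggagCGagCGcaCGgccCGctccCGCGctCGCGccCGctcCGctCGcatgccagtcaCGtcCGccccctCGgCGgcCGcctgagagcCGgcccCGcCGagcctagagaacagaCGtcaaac
*Tet3*, chr6:83441629-83441928, minus strand: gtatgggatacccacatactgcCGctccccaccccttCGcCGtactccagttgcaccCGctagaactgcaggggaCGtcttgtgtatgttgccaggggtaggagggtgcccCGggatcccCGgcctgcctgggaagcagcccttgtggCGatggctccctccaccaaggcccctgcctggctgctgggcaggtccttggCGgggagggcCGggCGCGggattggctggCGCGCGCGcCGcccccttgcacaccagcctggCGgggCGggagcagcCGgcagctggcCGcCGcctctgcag

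The letters AAGGTCA and AAGGCCA, which nuclear receptors of the NR5A2 type are known to bind, were searched on both strands, and the motifs do not overlap each other in any match shown. Of all promoters, 4.72% held AAGGTCA (1550) and 6.20% held AAGGCCA (2038). Among the 16, 2 held AAGGCCA and 0 held AAGGTCA. These were the most upstream of 3 *Dnmt1* promoters, with the match starting 228 bases before the start, and the most downstream of 3 *Dnmt3l* promoters, with the match 8 bases before the start. They are printed with the match, which reads in the opposite orientation to the gene, in capitals.
*Dnmt1*, chr9:20959839-20960138, minus strand: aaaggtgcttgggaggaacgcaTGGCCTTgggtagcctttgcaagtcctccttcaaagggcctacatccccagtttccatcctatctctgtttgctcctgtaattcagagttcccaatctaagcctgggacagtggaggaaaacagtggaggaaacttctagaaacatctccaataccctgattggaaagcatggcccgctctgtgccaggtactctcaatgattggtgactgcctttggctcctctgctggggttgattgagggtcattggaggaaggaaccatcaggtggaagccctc
*Dnmt3l*, chr10:78055085-78055384, plus strand: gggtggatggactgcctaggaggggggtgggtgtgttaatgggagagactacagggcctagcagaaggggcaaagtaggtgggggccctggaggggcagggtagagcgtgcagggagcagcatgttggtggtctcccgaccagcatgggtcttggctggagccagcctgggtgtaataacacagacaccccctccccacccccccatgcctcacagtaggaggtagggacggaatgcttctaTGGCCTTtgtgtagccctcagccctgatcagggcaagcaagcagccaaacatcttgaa

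The composition of these factors was first compared between stages in the 16 control embryos at 2C and the 16 at 8C, where transcripts inherited from the oocyte give way to embryonic ones. *Tet3* and *Uhrf1* fell, *Dnmt1* and *Dnmt3a* fell to a smaller extent, and *Dppa3*, *Trim28*, *Tet2*, *Dnmt3b* and *Tet1* rose. *Dnmt3l* did not pass the test. The test was limma on log2(FPKM + 1), and a gene was called at a Benjamini-Hochberg adjusted p under 0.05. By this rule 9 of 10 were called, 5 higher and 4 lower at 8C, where 72.5% of 12991 genes tested were called. With the stricter limits that the methods of the study set (0.01 for the adjusted p, and 2 for the size of the log2 fold change), 4 of 10 were called (*Tet3*, *Uhrf1*, *Dppa3* and *Trim28*), against 19% of all genes. The study set these limits for a count test. Here the 1 added to FPKM shrinks changes of genes at low levels, which bears on which genes pass. For *Tet2* the log2 fold change ran from 1.27 to 2.57 over 15 alternative settings. The median change of all genes was -0.31 on the log2 scale, and it was -0.49 with median-ratio scaling, -0.01 with quantile normalization and -0.64 with FPKM rescaled to the same sum. Each library here is a whole embryo, so differences between its cells cannot be seen. FPKM is relative to the RNA sequenced in each library, so a fall need not be a loss of transcripts per embryo.

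**Figure D1:**
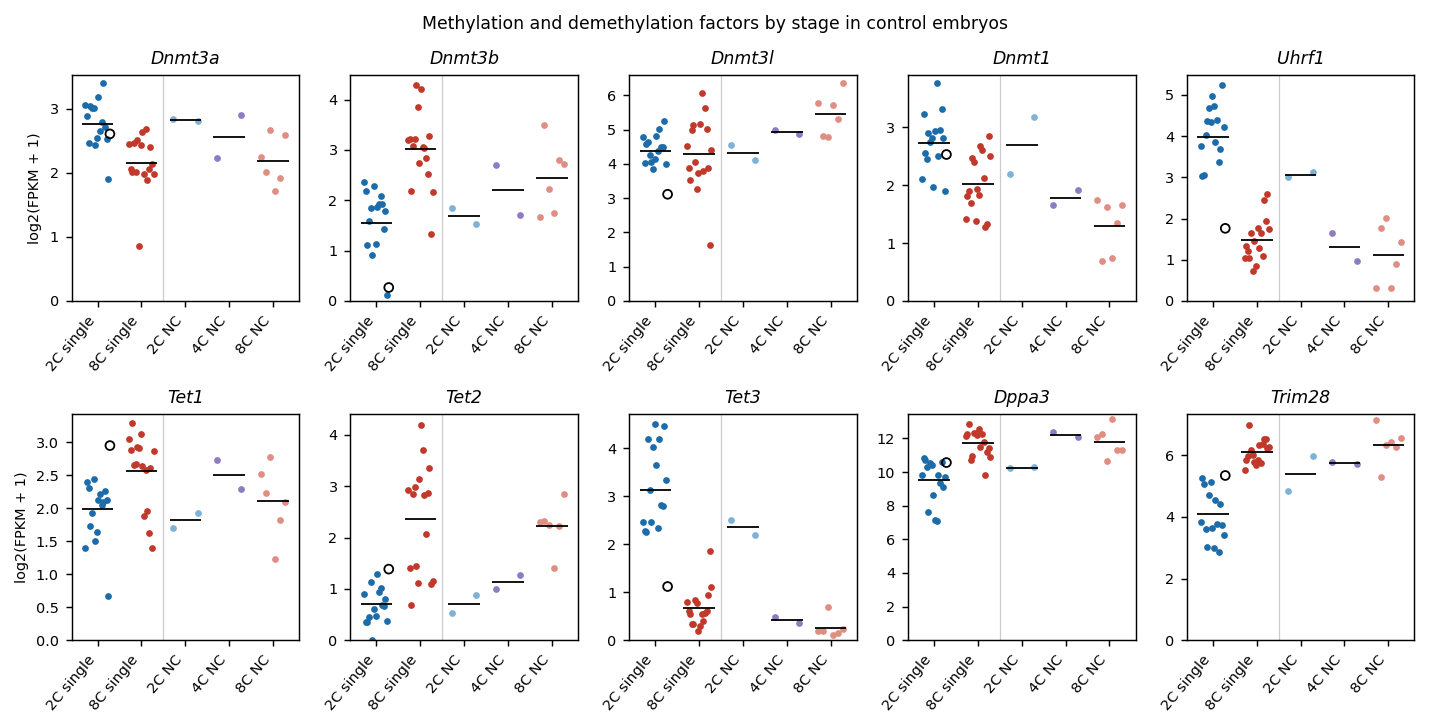
Levels of the 10 genes in control embryos, as log2(FPKM + 1) on the vertical axis, in single 2C and 8C embryos (BE and sgRNA, 16 per stage) and, right of the grey line, in pools of NC embryos (2 at 2C, 2 at 4C and 6 at 8C). Each point is a library, bars are means and the open circle is the library labelled 2C sgRNA replicate 8; *Trim28* is the gene whose 2C and 8C embryos do not overlap, while *Tet3* and *Uhrf1* overlap through that library.

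Among the dioxygenases, *Tet3*, the oocyte-supplied enzyme that oxidises 5-methylcytosine in the zygote, had a lowest, median and highest level of 1.17, 6.93 and 21.6 FPKM in 2C control embryos and of 0.135, 0.499 and 2.64 in 8C control embryos. The stages overlapped through the library labelled 2C sgRNA replicate 8, at 1.17. The other 15 embryos at 2C were at 3.78 or above, over every embryo at 8C. *Tet3* fell by 2.46 on the log2 scale (SE 0.24, adjusted p = 8e-14), and by 2.60 without the libraries whose column names give another stage. *Tet2*, which lacks the CXXC DNA-binding domain of its relatives, was at 0, 0.597 and 1.61 FPKM at 2C and at 0.606, 6.18 and 17.4 at 8C. The ranges overlapped, and the rise was 1.65 (SE 0.27, adjusted p = 2.82e-07). *Tet1*, best known from embryonic stem cells, was at 0.589, 3.32 and 6.71 FPKM at 2C and at 1.63, 5.33 and 8.82 at 8C. Its rise of 0.58 (SE 0.21, adjusted p = 0.0124) had the highest adjusted p of the 9. It was no longer called with median-ratio scaling (0.33, adjusted p = 0.106), with FPKM rescaled to the same sum (0.07, adjusted p = 0.768) or in the sgRNA embryos alone (0.13, adjusted p = 0.724).

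Within each embryo, *Tet3* made up most of the summed FPKM of the TET genes at 2C and little of it at 8C. Its share was 65.1% ± 21.5 (SD, n = 16) at 2C and 7.90% ± 11.4 at 8C. Without the library labelled 2C sgRNA replicate 8, where *Tet3* made up 12.4%, the 2C share was 68.6% ± 16.8 with a lowest value of 46.0%. The 8C embryo sgRNA replicate 7 stood apart, with 48.8% *Tet3* and 2C markers summing to 103 FPKM. *Tet2* went from 5.90% ± 4.65 to 42.8% ± 23.9, and *Tet1* from 29.0% ± 19.1 (26.2% ± 16.1 without that library) to 49.3% ± 21.9. The spread between 8C embryos was wide, with *Tet2* shares from 6.13% to 79.3%. The shares describe composition and were not tested.

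**Figure D2:**
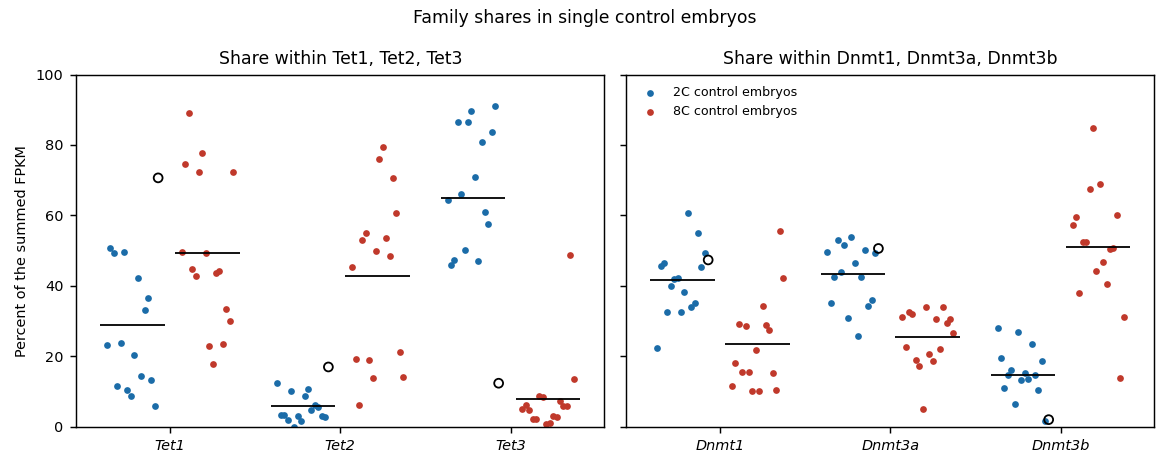
Share of each gene in the summed FPKM of its family (vertical axis, percent) in 16 control embryos at 2C (blue) and 16 at 8C (red), for the 3 TET genes and for *Dnmt1*, *Dnmt3a* and *Dnmt3b*. Points are embryos, bars are means and open circles are the library labelled 2C sgRNA replicate 8; the mean *Tet3* share is 65.1% at 2C and 7.90% at 8C, and the mean *Dnmt3b* share is 14.7% and 51.2%.

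Among the maintenance factors, *Uhrf1* fell together with *Tet3*. It was at 2.39, 16.6 and 37.0 FPKM (lowest, median, highest) at 2C and at 0.663, 1.63 and 5.04 at 8C. As for *Tet3*, the only embryo at 2C within the 8C range was the library labelled 2C sgRNA replicate 8, and the other 15 were at 7.13 or above. The fall was 2.48 on the log2 scale (SE 0.24, adjusted p = 1.18e-13), and 2.63 without the libraries whose column names give another stage. *Dnmt1*, the maintenance methyltransferase, was at 2.75, 5.87 and 12.5 FPKM at 2C and at 1.44, 2.78 and 6.16 at 8C. These ranges overlapped widely. Its log2 fold change was -0.71 (SE 0.21, adjusted p = 0.00262), and it lost its call under quantile normalization (-0.29, adjusted p = 0.225).

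The de novo methyltransferases went in opposite directions. *Dnmt3a* was at 2.74, 5.73 and 9.60 FPKM at 2C and at 0.805, 3.27 and 5.42 at 8C, a log2 fold change of -0.61 (SE 0.18, adjusted p = 0.00211) that lost its call under quantile normalization (-0.23, adjusted p = 0.289) and in the sgRNA embryos alone (-0.50, adjusted p = 0.0824). *Dnmt3b* was at 0.0869, 2.52 and 4.14 FPKM at 2C and at 1.53, 7.39 and 18.5 at 8C, with a rise of 1.46 (SE 0.26, adjusted p = 1.12e-06). Both pairs of ranges overlapped. Of the summed FPKM of *Dnmt1*, *Dnmt3a* and *Dnmt3b*, *Dnmt3b* took 14.7% ± 7.65 (SD, n = 16) at 2C and 51.2% ± 16.4 at 8C, while *Dnmt1* went from 41.8% ± 9.44 to 23.4% ± 12.9 and *Dnmt3a* from 43.5% ± 8.64 to 25.4% ± 7.97. *Dnmt3l*, a catalytically inactive cofactor of DNMT3A and DNMT3B, was at 7.66, 20.7 and 36.8 FPKM at 2C and at 2.11, 17.9 and 66.9 at 8C. Its log2 fold change was -0.07 (95% interval -0.67 to 0.52, adjusted p = 0.833), and with FPKM rescaled to the same sum it was called lower (-0.69, adjusted p = 0.0159).

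Of the protective factors, *Dppa3* was the most abundant of the 10 genes at both stages. It was at 137, 891 and 1856 FPKM at 2C and at 905, 4079 and 7433 at 8C, and rose by 2.195 on the log2 scale (SE 0.36, adjusted p = 3.7e-07) with overlapping ranges. *Trim28* was at 6.27, 12.9 and 39.4 FPKM at 2C (the highest being the library labelled 2C sgRNA replicate 8, and 36.9 without it) and at 44.8, 66.2 and 125 at 8C. Every 8C control embryo was above every 2C control embryo, which held for 3.26% of all genes in either direction. The rise was 2.02 (SE 0.25, adjusted p = 2.03e-10).

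Without the libraries whose column names give another stage, the same 9 genes were called, with log2 fold changes of 0.64 for *Tet1*, 1.68 for *Tet2*, 1.38 for *Dnmt3b*, 2.29 for *Dppa3*, 2.13 for *Trim28*, -0.73 for *Dnmt1* and -0.62 for *Dnmt3a* beside those of *Tet3* and *Uhrf1* above. Column names of BE and BE + sgRNA embryos carried eBE or BE4, which are names of base editors, while the methods of the study name an eBE plasmid only. The names also carried library numbers, by which 57 embryos fell into an eBE set and a BE4 set. The 15 sgRNA embryos among them had no editor in the name and were placed by number, and none at 2C was in the BE4 set. The editor named and the set of libraries cannot be told apart. Within the eBE set 8 of 10 genes were called and within the BE4 set 6 of 10. The share over all genes was 72.5% with all control embryos. It is not given within the sets or without those libraries, so these counts describe single genes only. The log2 fold changes were -2.60 and -2.68 for *Tet3*, -2.54 and -2.92 for *Uhrf1*, 2.02 and 1.49 for *Tet2*, 1.70 and 1.08 for *Dnmt3b*, and 2.30 and 2.14 for *Dppa3*, all called in both, as was *Trim28*, which was higher in both. *Dnmt1* was called in neither (-0.56, adjusted p = 0.0522, and -0.76, adjusted p = 0.109). *Dnmt3a* and *Tet1* were called in the eBE set but not in the BE4 set (-0.56, adjusted p = 0.183, and 0.67, adjusted p = 0.161), and the difference between sets was not tested.

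FPKM is scaled by transcript length, so levels can be ordered between genes. At 2C the order of the medians was *Dppa3*, *Dnmt3l*, *Uhrf1*, *Trim28*, *Tet3*, *Dnmt1*, *Dnmt3a*, *Tet1*, *Dnmt3b* and *Tet2*. Neighbours from *Dnmt3l* to *Dnmt3a* could not be ordered beyond the spread between embryos, since each was above the next in 7 to 10 of 16 embryos. *Dnmt3a* was above *Tet1* in 15 embryos, *Tet1* above *Dnmt3b* in 13 and *Dnmt3b* above *Tet2* in 14. At 8C the order was *Dppa3*, *Trim28*, *Dnmt3l*, *Dnmt3b*, *Tet2*, *Tet1*, *Dnmt3a*, *Dnmt1*, *Uhrf1* and *Tet3*. Here *Dppa3* was above *Trim28* and *Trim28* above *Dnmt3l* in 16 of 16 embryos, *Dnmt3l* above *Dnmt3b* in 14, *Dnmt3b* above *Tet2* in 12, *Dnmt1* above *Uhrf1* in 13 and *Uhrf1* above *Tet3* in 15. From *Tet2* to *Dnmt1* each was above the next in 9 to 11 embryos. *Tet2* had the lowest median at 2C and *Tet3* at 8C.

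Pools of NC embryos gave levels at the intermediate 4C stage. *Tet3* was at 4.70 and 3.61 FPKM in 2C NC pools and at 0.395 and 0.281 in 4C NC pools. In the 6 NC pools at 8C it ran from 0.0714 to 0.624. *Uhrf1* was at 6.99 and 7.74 FPKM at 2C, at 2.12 and 0.949 at 4C and at 0.244 to 3.04 at 8C. For both genes the NC pools at 4C were already within or next to the 8C range. *Dppa3* was at 1207 and 1238 FPKM at 2C, 5362 and 4302 at 4C and 1600 to 9174 at 8C. *Tet2* did not pass the test between 4C and 8C. It was at 0.989 and 1.41 FPKM at 4C and at 3.97 and 4.00 at 8C in the 4KD experiment, which gave a log2 fold change of 1.19 (SE 0.46, adjusted p = 0.65). From 4C to 8C in this experiment, 0 of 9 genes tested were called by limma, 0% of 10476 genes were called, and 776 genes had an unadjusted p under 0.05, of which *Tet2* was the 1 among the 9. *Tet2* was also the 1 gene of the 9 whose groups did not overlap, as 35.3% of all genes did not. The 2C pools came from another experiment and were not tested against these.

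The KD pools were examined next, to ask whether levels of these factors depend on the nuclear receptors. None was called in any of the 13 comparisons of pools, which comprised 117 tests with limma. An unadjusted p under 0.05 was found in 5 of the 117 (4.27%). With 2 pools against 2, an exact permutation test cannot give a p under 0.333. The 95% interval of a log2 fold change had a median half-width of 1.10 and a range of 0.652 to 1.80, so a change of about 2-fold would often lie within it. Absence of a call is therefore a statement about this precision. In data simulated with the spread of each fit, 200 genes were changed by 1 or 2 on the log2 scale. Of those changed by 2, 0% were called in the 4KD, 3KD and 2C comparisons with NC. In the single KD comparisons with NC, 19% to 32% of them were called. These shares hold for 200 changed genes and for fits that do not pair same-numbered pools. They need not hold when more genes change. *Tet3* was under 1 FPKM on average in every group of pools at 4C and 8C and was not tested there.

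**Figure D3:**
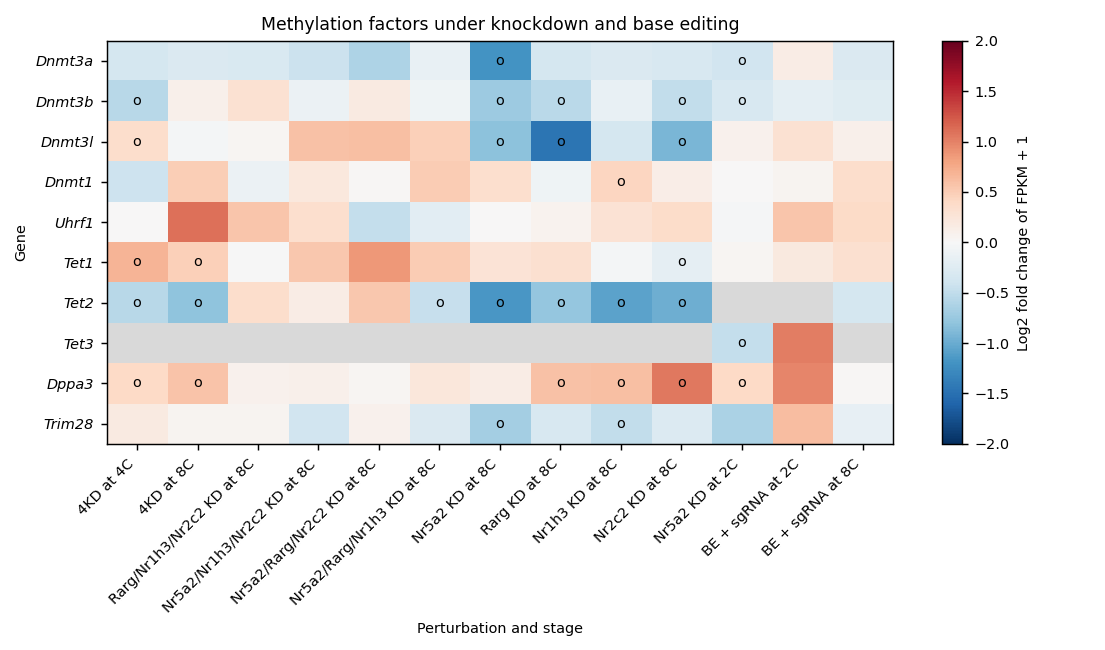
Log2 fold change of FPKM + 1 (colour scale) of the 10 genes (rows) in each KD group against its NC pools and in BE + sgRNA embryos against the control embryos (columns). Circles mark pools that do not overlap between KD and NC, grey cells were not tested because of a mean under 1 FPKM in every group of the fit, and no cell was called by limma; the lowest value is -1.46 (*Dnmt3l*, *Rarg* KD) and the highest 1.10 (*Uhrf1*, 4KD at 8C).

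After single KD at 8C, *Dnmt3a* and *Tet2* were lower in both *Nr5a2* KD pools than in both NC pools, without passing the test. *Dnmt3a* was at 1.38 and 0.838 FPKM in *Nr5a2* KD pools and at 2.80 and 5.00 in NC pools, a log2 fold change of -1.19 (SE 0.45, adjusted p = 0.19). The *Rarg*, *Nr1h3* and *Nr2c2* KD pools ran from 1.93 to 4.22, and against these 6 pools the log2 fold change was -0.87 (adjusted p = 0.224). In 3KD pools with *Nr5a2* siRNA, *Dnmt3a* ran from 1.08 to 3.65, within reach of its NC pools at 5.32 and 2.29. *Tet2* was at 1.05 and 2.24 FPKM in *Nr5a2* KD pools and at 3.64 and 6.21 in NC pools (log2 fold change -1.17, SE 0.49, adjusted p = 0.234). Neither gene's groups overlapped. *Tet2* was at 2.19 and 1.37 FPKM in *Nr1h3* KD pools (-1.07, SE 0.49, adjusted p = 1), at 1.71 and 3.20 in *Rarg* KD pools and at 1.02 and 3.24 in *Nr2c2* KD pools. All 4 comparisons share the same 2 NC pools, one of which, at 6.21, had the highest *Tet2* of the 8C pools.

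*Dnmt3l* was at 14.2 and 27.3 FPKM in *Rarg* KD pools and at 38.5 and 81.95 in NC pools. Its log2 fold change of -1.46 (SE 0.45, unadjusted p = 0.00771, adjusted p = 1) was the largest in size among the 117. *Dnmt3l* was at 26.9 and 36.3 FPKM in *Nr5a2* KD, 39.3 and 49.3 in *Nr1h3* KD and 25.6 and 33.7 in *Nr2c2* KD pools, again against the same NC pools. *Dppa3* was at 6820 and 4245 FPKM in *Nr2c2* KD pools and at 2578 and 2586 in NC pools (1.06, SE 0.62, adjusted p = 0.93). The 2C markers summed to 1.77 and 388 FPKM in these *Nr2c2* KD pools and to 1.43 and 4.66 in NC pools, and their part in the level of *Dppa3* was not tested. In *Nr5a2* KD pools *Dppa3* was at 1167 and 6966, below and above both NC pools.

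**Figure D4:**
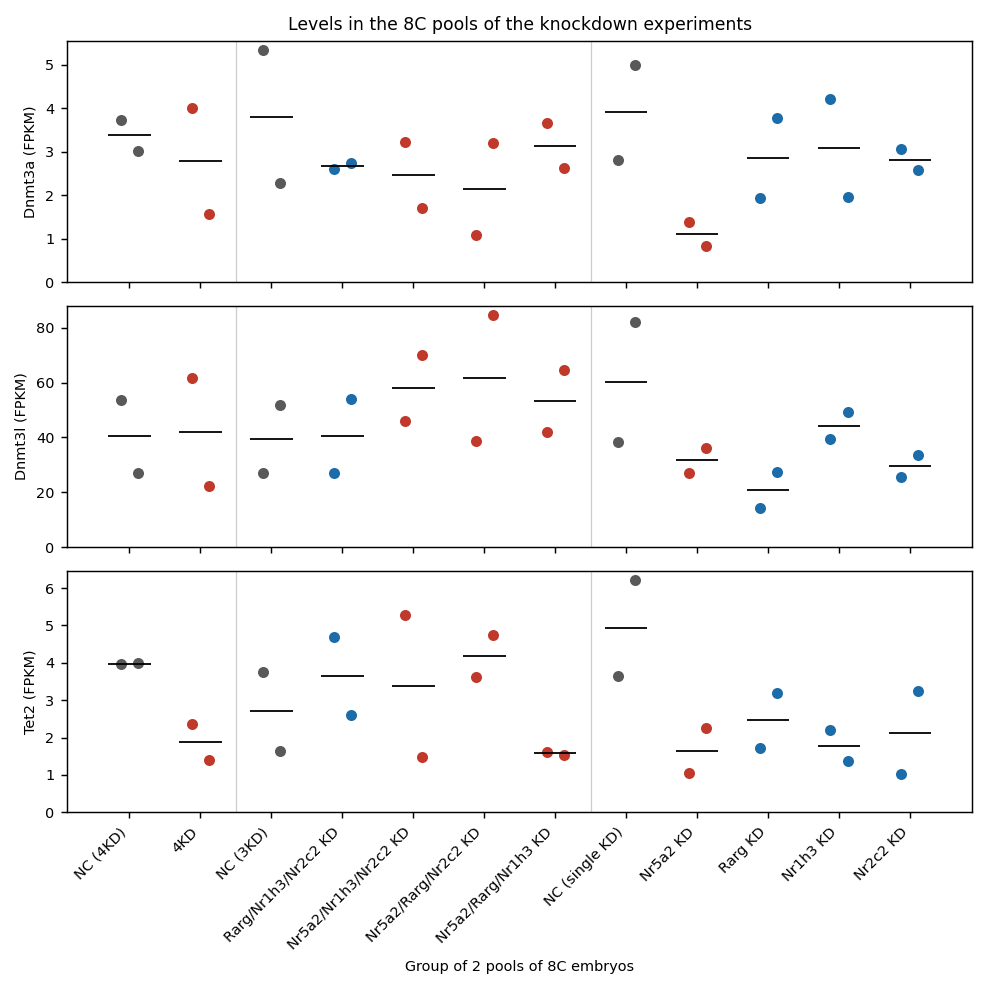
FPKM (vertical axes) of *Dnmt3a*, *Dnmt3l* and *Tet2* in the 24 pools of 8C embryos, in 3 experiments divided by grey lines; grey points are NC pools, red points KD pools with *Nr5a2* siRNA and blue points KD pools without it, and bars are means of 2 pools. *Dnmt3a* in *Nr5a2* KD pools (1.38 and 0.838) lies below both of its NC pools, while 3KD pools with *Nr5a2* siRNA run from 1.08 to 3.65.

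Counts of non-overlapping groups were read against all genes, since 2 pools per group separate easily. In *Nr5a2* KD at 8C, 5 of 9 genes were lower in both pools (*Dnmt3a*, *Dnmt3b*, *Dnmt3l*, *Tet2* and *Trim28*) and 0 were higher, where 46% of 10163 genes did not overlap and 2.75% were called. For *Trim28* the values were 53.7 and 50.8 FPKM against 76.0 and 93.6 (-0.68, adjusted p = 0.371). *Klf5* and *Nanog*, which mark later stages, were called lower in the same pools (-2.98, adjusted p = 0.00243, and -3.14, adjusted p = 0.00243). The study reports both, and *Pou5f1*, *Tfap2c* and *Gata3* of the same marker list, as NR5A2-bound genes that fall after *Nr5a2* KD. In these pools the list is therefore not a reading of stage apart from the KD itself. The 8 markers of 4C to 8C and later stages summed to 137 and 182 FPKM in *Nr5a2* KD against 508 and 570 in NC pools, and the 6 oocyte markers to 86.6 and 135 against 36.2 and 43.2. Of the 6 oocyte markers, 3 had a mean of at least 1 FPKM in these KD pools and 5 in the NC pools. None of them was called, and the sum need not describe each marker. The part of either list in the values of the 5 genes was not tested. In *Rarg*, *Nr1h3* and *Nr2c2* KD, 4 of 9, 4 of 9 and 5 of 9 genes did not overlap, against 31.2%, 36.9% and 40.3% of all genes, and calls over all genes came to 0.00984%, 0.00984% and 0.0787%. Against the other single KD groups, 1 of 9 (*Dnmt3a*) did not overlap in *Nr5a2* KD, against 19.3% of all genes, of which 3.95% were called. In *Nr5a2* KD at 2C, 4 of 9 did not overlap, against 35.6% of 11958 genes, with 0.0167% called. There *Tet3* was at 2.38 and 3.00 FPKM against 4.70 and 3.61 (-0.48, adjusted p = 0.905).

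In 4KD embryos, *Tet2* was at 0.502 and 0.485 FPKM against 0.989 and 1.41 in NC at 4C, and at 2.36 and 1.40 against 3.97 and 4.00 at 8C. The pools did not overlap at either stage, and the log2 fold changes were -0.55 (adjusted p = 0.925) and -0.81 (adjusted p = 0.798). *Tet1* and *Dppa3* were higher in both 4KD pools at both stages, with *Tet1* at 8.85 and 7.46 FPKM against 5.61 and 3.90 at 4C and 5.49 and 6.93 against 4.72 and 3.67 at 8C. In all, 5 of 9 genes did not overlap at 4C and 3 of 9 at 8C, against 30% and 37.2% of all genes, and 0% of genes were called at either stage or in the difference between the stages. In 3KD embryos, with pools set against both NC pools, the number was 0 of 9 for *Rarg*/*Nr1h3*/*Nr2c2*, *Nr5a2*/*Nr1h3*/*Nr2c2* and *Nr5a2*/*Rarg*/*Nr2c2* KD and 1 of 9 (*Tet2*, lower) for *Nr5a2*/*Rarg*/*Nr1h3* KD, against 23.4%, 31.5%, 30.9% and 32.5% of 10626 genes, of which 0%, 0.0565%, 0.00941% and 0% were called. The 3KD combination without *Nr5a2* siRNA, set against the other 3, separated 1 of 9 genes (*Dnmt1*, 1.08 and 1.11 FPKM against 1.28 to 2.80), against 14.4% of all genes, with 0.282% called. The NC pools of this experiment differed widely for some genes, with *Dppa3* at 1600 and 9174 FPKM and *Uhrf1* at 3.04 and 0.244, and same-numbered pools deviated together. Set against the NC pool of the same number, 4, 4, 3 and 3 of 9 genes were on 1 side in both pools of the 4 combinations in the order above, against 47.5%, 60.1%, 50.8% and 52.2% of all genes. *Dnmt3l* was above its same-numbered NC pool, at 26.9 and 51.7 FPKM in replicates 1 and 2, in all 8 KD pools. The 8 KD pools share the same NC pools, and the gene was picked after its values were seen. The share of all genes on 1 side in all 8 is not given. *Dnmt3l* was at 27.1 and 53.8 in *Rarg*/*Nr1h3*/*Nr2c2* KD, 45.9 and 69.9 in *Nr5a2*/*Nr1h3*/*Nr2c2* KD, 38.7 and 84.5 in *Nr5a2*/*Rarg*/*Nr2c2* KD and 41.9 and 64.7 in *Nr5a2*/*Rarg*/*Nr1h3* KD. With a replicate block the log2 fold changes against NC were 0.04, 0.59, 0.60 and 0.47 (SE 0.30, adjusted p 0.447 to 1), and that of the combination without *Nr5a2* siRNA against the other 3 was -0.52 (SE 0.25, adjusted p = 0.314).

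Base editing gave a larger sample, with 14 BE + sgRNA embryos against 16 controls per stage. At 2C, 0 of 9 genes tested were called by limma, against 0.00805% of 12420 genes, and 3 of the 9 had an unadjusted p under 0.05, as 1444 of all genes did. *Tet3* had the lowest of the 3 (0.00213). It was at 8.48, 15.7 and 34.4 FPKM (lowest, median, highest) in BE + sgRNA embryos, against 1.17, 6.93 and 21.6 in the controls. The ranges overlapped, and the log2 fold change was 1.02 (SE 0.31, adjusted p = 0.216). Within the eBE set the medians were 19.5 in 6 embryos and 6.04 in 11, and within the BE4 set 14.2 in 8 and 11.5 in 4. *Dppa3* was at 188, 1648 and 3399 FPKM against 137, 891 and 1856 (0.98, adjusted p = 0.362). *Trim28* was at 4.42, 28.5 and 52.8 against 6.27, 12.9 and 39.4 (0.62, adjusted p = 0.427). Medians of the summed oocyte markers were 1385 FPKM in BE + sgRNA, 1377 in BE and 1375 in sgRNA embryos, and those of the 2C markers 624, 841 and 206. By set the markers differed. In the eBE set the oocyte markers had a median of 2838 FPKM in BE + sgRNA embryos and 1391 in controls, and the 2C markers 1311 and 680.1, in the set where the *Tet3* medians were farther apart. In the BE4 set the medians were 1309 and 1377 for the oocyte markers and 425 and 1184 for the 2C markers. The part of either list in the levels of *Tet3*, *Dppa3* and *Trim28* was not tested. Without the library labelled 2C sgRNA replicate 8 the log2 fold changes were 0.88 for *Tet3* (adjusted p = 0.187), 1.08 for *Dppa3* (adjusted p = 0.261) and 0.72 for *Trim28* (adjusted p = 0.292). *Tet2* was listed at 0 in 2 of 14 BE + sgRNA embryos and 1 of 16 controls and was not tested at 2C.

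**Figure D5:**
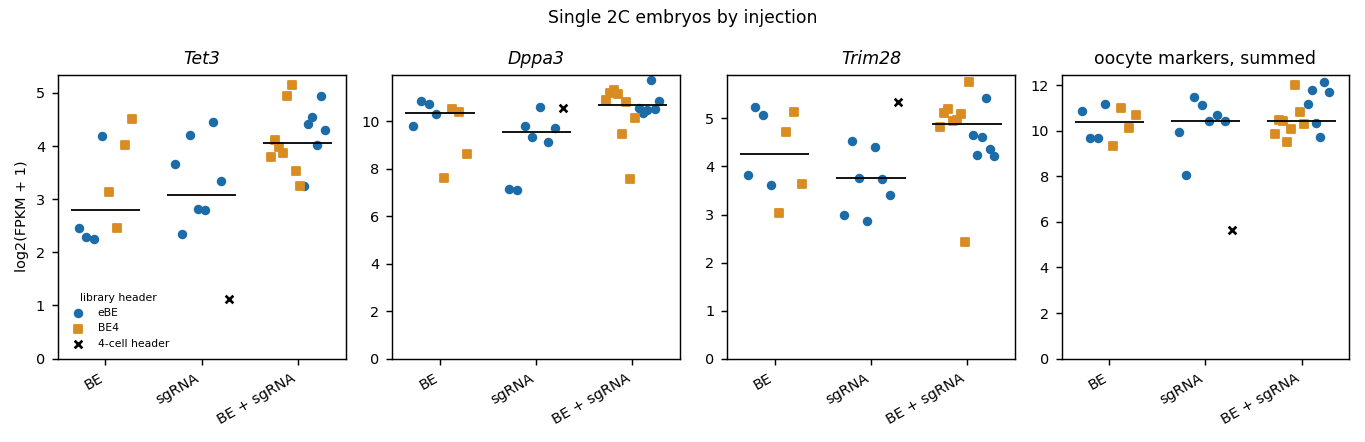
Single 2C embryos by injection, as log2(FPKM + 1) of *Tet3*, *Dppa3*, *Trim28* and the sum of 6 oocyte markers (vertical axes), with the set of libraries read from column names (eBE or BE4) as colour and shape; bars are medians, and the cross is the library labelled 2C sgRNA replicate 8. *Tet3* ranges from 8.48 to 34.4 FPKM in BE + sgRNA embryos and from 1.17 to 21.6 in the controls.

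At 8C, 0 of 9 genes were called, against 0.164% of 9760 genes, and none of the 9 had an unadjusted p under 0.05, while 1058 of all genes did. *Tet3*, at 0.318, 0.857 and 2.27 FPKM in BE + sgRNA embryos and a mean under 1 in each group, was not tested. Its highest value and the value of 1.61 came from the libraries labelled replicates 14 and 13, whose column names give the 4-cell stage. The count of genes called was also 0 at both stages without the 3 libraries that have such names. The oocyte gene *Gdf9* was called higher in BE + sgRNA embryos at 8C (1.84, SE 0.38, adjusted p = 0.0459) but not without replicates 13 and 14 (1.62, adjusted p = 0.171), and the summed oocyte markers had medians of 78.8 FPKM in BE + sgRNA, 30.7 in BE and 26.7 in sgRNA embryos. Their part in the levels of the 9 genes was not tested. The effect at 8C minus that at 2C was -0.76 for *Tet3* (SE 0.35, adjusted p = 0.479) and -0.78 for *Trim28* (SE 0.37, adjusted p = 0.487), with 0 of 10 called, against 0.0385% of all genes. BE and sgRNA embryos were also compared with each other, with 0 of 9 genes called at each stage and 0% of all genes. At 8C the means in BE and sgRNA embryos were 6.73 and 3.86 FPKM for *Tet1* (0.74, SE 0.30, adjusted p = 0.593) and 1.29 and 2.72 for *Uhrf1* (-0.65, SE 0.30, adjusted p = 0.593). Among these sgRNA embryos, replicates 5 to 8 had the lower FPKM sums given above, whose part in these values was not tested.

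Partner genes of the pathway were taken from 5 lists of 61 genes. With stage, 42 of the 55 tested were called, 24 higher and 18 lower at 8C, close to the 72.5% of all genes. Partners of maintenance and de novo methylation counted 8 higher and 5 lower of 16, with a median log2 fold change of 0.48 against -0.31 over all genes. Genes for removal and repair of oxidised bases counted 6 and 6 of 13 (median 0.01), methyl-CpG readers 0 and 2 of 4 (-0.39), silencing partners of TRIM28 5 and 3 of 10 (0.31), and genes for methyl donors and cofactors 5 and 2 of 12 (0.42). The 6 with the largest changes were 4 that fell and 2 that rose. *Zfp57*, the KRAB zinc finger protein that guides TRIM28 to imprinted regions, fell from a mean of 207 to 4.56 FPKM (-4.83, SE 0.38, adjusted p = 1.82e-17). *Nlrp14*, a maternal oocyte gene, fell from 62.0 to 2.86 (-4.05, SE 0.30). *Gadd45a* and *Gadd45b*, stress response genes linked to active demethylation, fell from 32.0 to 0.472 (-4.49, SE 0.31) and from 88.4 to 7.03 (-3.58, SE 0.44). *Xrcc1* and *Parp1*, which act in repair of single-strand breaks, rose from 2.82 to 50.5 (3.99, SE 0.31) and from 6.62 to 61.1 (3.25, SE 0.27).

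Of 51 partner genes tested in *Nr5a2* KD at 8C, 2 were called against NC, both lower, where 2.75% of all genes were called. Against the other single KD groups 3 of the 51 were called, all lower, where 3.95% of all genes were called. These counts are near the shares over all genes, so the values below describe single genes. *Idh1* encodes the cytosolic isocitrate dehydrogenase, a source of the 2-oxoglutarate that TET enzymes use. It was at 4.04 and 7.31 FPKM in 8C *Nr5a2* KD pools and at 66.4 and 51.8 in NC pools, a fall of 3.20 on the log2 scale (SE 0.43, adjusted p = 0.00414). In the *Rarg*, *Nr1h3* and *Nr2c2* KD pools *Idh1* ran from 26.7 to 59.3, and *Nr5a2* KD was lower than these by 2.78 (SE 0.35, adjusted p = 0.00187). At 8C every pool with *Nr5a2* siRNA was below both NC pools of its experiment. *Idh1* was at 128 and 115 FPKM in the 3KD pools without *Nr5a2* siRNA and at 8.60 to 29.8 in the 6 with it (3.05, SE 0.49, adjusted p = 0.0355). With a replicate block, since these pools were paired by number, the adjusted p was 0.00495, and leaving out any 1 of the 8 pools ended the call (adjusted p 0.0753 to 0.402). In 4KD pools it was at 13.1 and 15.96 against 92.0 and 58.9, without a call. *Parp1* was at 9.46 and 9.45 FPKM in *Nr5a2* KD pools, at 49.5 and 65.2 in NC pools and at 27.96 to 56.7 in the other single KD pools. Its log2 fold changes were -2.47 (SE 0.37, adjusted p = 0.00645) and -2.01 (SE 0.30, adjusted p = 0.00417). Leaving out either NC pool ended the calls of *Idh1* and *Parp1* against NC (adjusted p 0.0629 to 0.116), but the calls against the other single KD groups held when any of those 8 pools was left out. *Idh2*, the mitochondrial relative, was lower in *Nr5a2* KD than in the other single KD pools (11.2 and 14.3 against 27.7 to 60.7 FPKM, -1.51, SE 0.37, adjusted p = 0.0429) and lost its call in 10 of 16 alternatives. None of the other tested genes of the 5 lists was called in *Nr5a2* KD. In BE + sgRNA embryos at 8C, 0 of 49 genes tested of the 5 lists were called. *Idh1* had means of 29.9 FPKM there and 54.4 in the controls (-0.93, 95% interval -1.68 to -0.18, adjusted p = 0.341), and *Parp1* had means of 45.5 and 61.1 (-0.52, adjusted p = 0.456). The part of the stage markers, given above for these pools, in the changes of *Idh1*, *Parp1* and *Idh2* was not tested.

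Over the means of the 22 groups, each gene was set against 9180 others by the Pearson correlation of log2(FPKM + 1). The groups span 3 stages and share their libraries across genes, and no test was made. *Tet3* was most like *Unc5c* (r = 0.994) and *Nat14* (0.992), and *Uhrf1* most like *Ncald* (0.965) and *Lrrc17* (0.964). *Trim28* was most like *Tmem208* (0.964) and *Mrpl54* (0.958), and *Dppa3* most like *Rplp0* (0.962) and *Cox7a1* (0.957). Values for the methyltransferases were 0.931 (*Rnf10*) and 0.928 (*Dot1l*) for *Dnmt1*, 0.908 (*Ddb1*) and 0.902 (*Ldb1*) for *Dnmt3b*, and 0.893 (*Slc25a15*) and 0.887 (*Atf2*) for *Dnmt3a*. *Tet2* was most like *Ttc13* (0.904) and *Pdzd3* (0.878), and *Dnmt3l* most like *Txndc12* (0.856).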

How the data were processed

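RNA was profiled by Smart-seq2 in pools of embryos and in single embryos. The authors mapped trimmed reads to mm9 with TopHat and deposited FPKM per gene made with Cufflinks on refFlat, with no scaling between libraries. Of 113 samples, 92 had FPKM and 21 were not analysed here. Read depth is unknown; steps between low FPKM gave a relative depth of 0.369 to 1.52 of the median library, so no counting interval is given. Values were compared as log2(FPKM + 1) with limma 3.58.1 (R 4.3.3), 1 fit per experiment, keeping genes whose mean FPKM reached 1 in any group, eBayes with a trend, two-sided, with Benjamini-Hochberg adjustment over all genes tested. The BE and sgRNA groups, averaged with equal weight, served as controls of BE + sgRNA. The study's methods name a count test, which FPKM do not allow. Members and lists were chosen with earlier results of these data known. Statistics were printed for members called, or not overlapping and changed by 1 or more on the log2 scale, and for some others chosen after their values were seen. Of partner genes, those called were named, at most 6 per comparison. Labels do not say whether the pools of a group come from separate collections, though the study describes them as biological replicates. The base editing libraries are separate single embryos. The p-values measure the spread between these samples, part of which may be technical. Same-numbered samples deviated together in the 3KD experiment (10 of 10 correlations over 0.1, 0.278 to 0.513), so these pools were taken as paired. Their main fit still had no block, and blocked values are given beside it; same-numbered single KD (-0.04 to 0.141) and 2C (0.00429) pools did not pair. Some of the genes most like *Tet1* and *Dnmt3l* are not reported here. The fits were tested on simulated data. Alternatives were another pseudocount, filter or scaling, a replicate block, single control groups, set of libraries and leaving out libraries.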

Additional observations from a re-analysis of the deposited data

Results flagged for a closer look

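In 40 sets of 8 embryos (10 genes in the BE and sgRNA groups at 2C and 8C), 3 had a library whose gap to the nearest other, divided by the range, was above the critical value of 0.526. Chance gives about 1 in 20 sets. *Dnmt3a* was lowest in 8C BE replicate 7, at 0.805 FPKM. *Tet1* was lowest in 2C sgRNA replicate 7, at 0.589 FPKM. *Trim28* was highest in 8C BE replicate 4, at 125 FPKM. No explanation was tested for these values.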

How the results depend on the processing

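Of 27 changes of single genes named by rule, 0 changed sign under the alternatives run for them. The rule itself favours this, since it took changes that were called or large changes whose groups did not overlap. Where groups do not overlap, leaving out a library cannot turn the sign. Of 176 other member log2 fold changes, mostly not printed, 98 changed sign under at least 1, and these were at most 0.65 in size. Of those printed, the change of *Dnmt3l* with stage did so, with 0.00071 in the sgRNA embryos alone, 0.03 with the set of libraries as a term and 0.04 within the eBE set. At the limits of the study's methods, 4 of 10 genes were called with stage instead of 9. Over the other alternatives that count was 6 to 9, and the share over all genes is not given for them. The count was also 9 with a block for replicate number. That number is not known to pair single embryos, so this block cannot bear on the calls with stage. In the comparisons of KD, BE + sgRNA and NC pools, the count of the 10 genes called stayed at 0 under every alternative run, the replicate block included, with 1 exception. When 1 library at a time was left out, *Nr5a2* KD against the other single KD groups gave 0 to 1, where without 8C *Nr5a2* KD replicate 2 *Dppa3* was called lower (-1.89, adjusted p = 0.049), from a lone remaining pool assumed to vary like the other groups. The replicate block changed 1 call, that of *Idh2* (adjusted p = 0.0503). Correlations between same-numbered 4KD pools were 0.346 and 0.336 within a stage and -0.297 to -0.271 across stages. A block with the numbers crossed between stages, chosen after seeing the data, gave 0 calls. The causes were not tested. FPKM without read counts give no limit of detection, which bears most on *Tet3* at 8C and *Tet2* at 2C.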
